A study of Mus with 21 samples.

Results

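The respiratory chain of mitochondria was followed here through 98 nuclear genes of the 18806 genes in the count files. Members were taken by symbol: every gene whose name begins with Ndufa, Ndufb, Ndufc, Ndufs, Ndufv, Uqcr or Atp5, the genes Sdha, Sdhb, Sdhc, Sdhd and Cyc1, and every gene named Cox4 to Cox8. By role they fell into 41 genes of Complex I, 8 assembly factors of Complex I (the Ndufaf genes), 4 genes of Complex II, 9 of Complex III, 19 of Complex IV and 17 of Complex V. In Complex I, 7 are core subunits, 30 are accessory subunits and 4 are gene copies (Ndufab1-ps, Ndufb4b, Ndufb4c and Ndufs6b), whose reads can be shared with their parent genes, so their values are uncertain. The subunits that mitochondrial DNA encodes were not analysed here.

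The series measured RNA from full-thickness wounds, 8 mm across, in the dorsal skin of female C57BL/6 mice with the genotype WT, 8 weeks old at purchase per the study's methods. Each wound received a GelMA hydrogel (gelatin methacrylate, a gelatin that can be set into a gel) made at pH 6.4, 7.4 or 8.4 and carrying either aFGF or bFGF, the acidic and the basic fibroblast growth factor, or no hydrogel at all in the control group. Tissue was taken on Day 4. There were 7 groups (control, 6.4/aFGF, 7.4/aFGF, 8.4/aFGF, 6.4/bFGF, 7.4/bFGF and 8.4/bFGF) of 3 mice each, 1 library a mouse. No group received a gel without growth factor or a growth factor without gel, so gel and growth factor cannot be told apart in any comparison with control. Total counts ran from 34362558 to 37817833 a library (median 36771838), of which the 98 members took 0.796% to 1.17% (median 0.916%).

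The respiratory chain passes electrons from nutrients to oxygen in the inner membrane of mitochondria. Complex I takes them from NADH and Complex II from succinate, ubiquinone carries them to Complex III, cytochrome c carries them to Complex IV, and Complex IV hands them to oxygen. The protons pumped on the way drive Complex V, the ATP synthase. Skeletal muscle carries many mitochondria, and a sheet of skeletal muscle and a layer of fat lie beneath the dermis of mouse skin. Muscle also uses its own isoforms of several Complex IV subunits.

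In each library the content of muscle was followed by a muscle score, the mean log2 CPM (counts relative to a scaled library total) of 26 skeletal muscle genes such as Acta1, Ckm and Myh4, and the content of fat by a fat score, the same mean over 20 adipocyte genes such as Adipoq, Plin1 and Lep. Neither list holds a member. In bulk tissue, fewer cells of a type and less RNA per cell cannot be told apart, so a score stands for the RNA of a tissue and not for its cells. All 26 muscle markers and all 20 adipocyte markers were above 0 in each of the 21 libraries. The muscle score ran from 2.83 in 7.4/bFGF replicate 3 to 8.85 in 6.4/aFGF replicate 3 (median 6.28), and the summed level of its markers ran from 430.1 to 23190 CPM. The fat score ran from 4.08 in 6.4/bFGF replicate 2 to 8.77 in control replicate 1 (median 6.09), with a summed level of 1038 to 20040 CPM. Mice of 1 group could lie far apart. In 7.4/bFGF the muscle markers summed to 430.1 CPM in 1 library and to 19730 and 20890 CPM in the others, and in the control group the fat markers summed to 1743, 11370 and 20040 CPM. The scores were not closely related to each other over the 21 libraries (Pearson's r = -0.225, permutation p = 0.327; Spearman's rho = -0.168, permutation p = 0.467), and r was -0.047 without the 2 libraries farthest from the median muscle score.

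In all, 3 libraries stood apart by genes of tissues that are not skin. A cartilage and bone list was highest in 7.4/aFGF replicate 3 (score 3.33, next highest -0.47), a liver list in 8.4/aFGF replicate 2 (3.35, next highest 1.05) and an ovary and oviduct list in 8.4/bFGF replicate 2 (3.98, next highest -0.50). The skin lists were present throughout, with keratinocyte markers summing to 3119 to 8134 CPM and fibroblast markers to 33430 to 74150 CPM. A neutrophil list was lowest in control replicate 3 (score 4.51) and highest in 7.4/bFGF replicate 3 (9.30). Cox7b2, a Complex IV isoform known from testis, was counted at 0 in 20 libraries and at 12 reads in 8.4/bFGF replicate 2, the library with the ovary genes, and did not pass the filter on low counts. The other 97 members passed it over the 21 libraries.

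Members were among the more abundant messages of the wound. On the FPKM scale, which divides by gene length and so can be compared between genes, the median member stood at 82.3 against 5.39 for all 15811 genes tested. Of the 97 members, 85 had a mean of at least 10 FPKM, as did 35.7% of all genes tested, and 39 had a mean of at least 100 FPKM, as did 4.43% of all genes. By complex, the median of the members' mean FPKM was 62.3 in Complex I, 86.4 in Complex II, 101.4 in Complex III, 130.5 in Complex IV and 187.9 in Complex V, and 6.96 for the assembly factors, which help to build Complex I and are not part of it. Complex V thus lay highest. Atp5b, the catalytic beta subunit of the ATP synthase, was the highest of all at 441.9 FPKM, and Atp5g1 was the lowest of Complex V at 70.0 FPKM. Cox4i1, the general form of subunit 4, led Complex IV at 397.0 FPKM, and Cox6b2, an isoform known from testis, was last of those that passed the filter at 2.55 FPKM. In Complex III, Uqcrh, the hinge protein at cytochrome c1, had 256.6 FPKM and the core protein gene Uqcrc2 63.6 FPKM. In Complex II the 4 subunits lay close together, from Sdha, the flavoprotein that oxidises succinate, at 73.9 FPKM to Sdhb, the iron-sulfur subunit, at 102.5 FPKM. Complex I ran from Ndufb9 at 179.2 FPKM to the gene copy Ndufb4c at 0.339 FPKM, and its assembly factors from Ndufaf8 at 29.2 FPKM to Ndufaf6 at 1.15 FPKM.

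Most members varied little from mouse to mouse. The SD of log2 CPM over the 21 libraries had a median of 0.20 over the members and of 0.32 over all genes tested. These 2 sets also differed in level, at a median of 82.3 and 5.39 FPKM, and SDs at equal level were not compared. Sdhd, a membrane anchor of Complex II, was the steadiest member with an SD of 0.08, its CPM running from 100.5 to 126.3. The largest SDs were those of Cox6a2 (1.45), Cox7a1 (1.09) and Cox8b (1.01), the isoforms of Complex IV known from muscle and, for Cox7a1 and Cox8b, also from brown fat, followed by the gene copy Ndufb4c (0.73, at no more than 20 reads in a library), Cox4i2 (0.58) and Ndufa4l2 (0.42).

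The highest value of most members fell in 3 libraries. Of the 97, 50 had their highest CPM in 6.4/aFGF replicate 3, the library with the highest muscle score, which is 51.6% of the members against 5.17% of all genes tested. Another 23 (23.7%, against 8.75% of all genes) were highest in control replicate 3 and 11 (11.3%, against 8.27%) in control replicate 1, which had a fat score of 7.97 and 8.77. A further 7 (7.22%, against 2.73%) were highest in 8.4/bFGF replicate 1, whose muscle score was 8.72 and fat score 7.78. The lowest library was 8.4/bFGF replicate 2 for 21 members, 6.4/bFGF replicate 2, which had the lowest fat score, for 19, and 7.4/aFGF replicate 1 for 14. Of all genes, 6.57%, 4.55% and 9.87% were lowest in these 3 libraries.

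**Figure D1:**
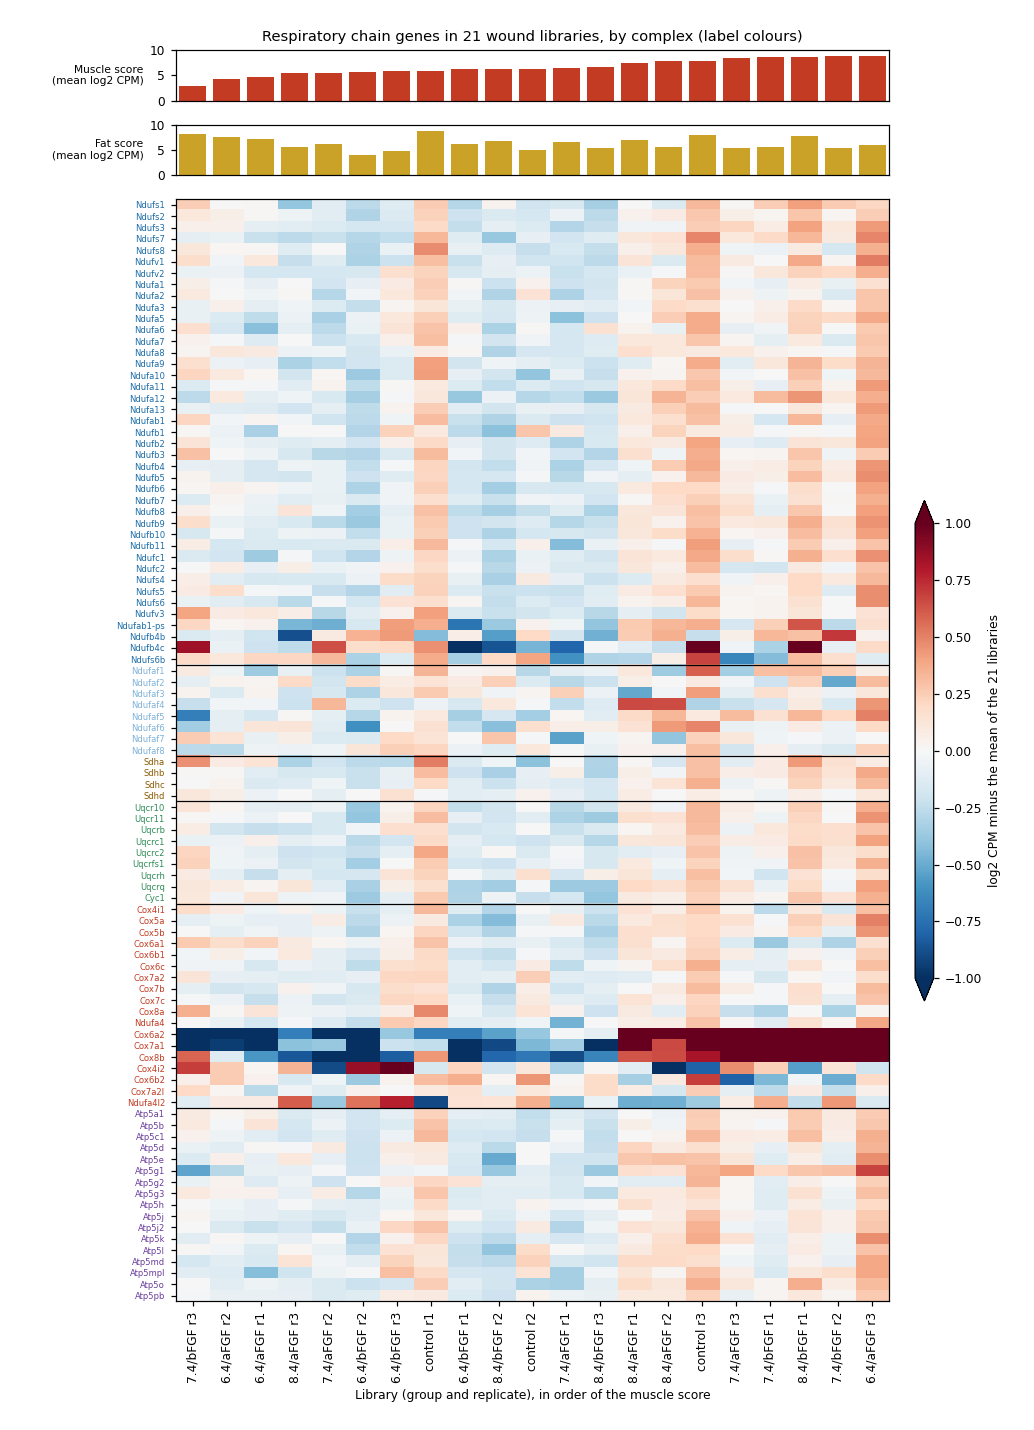
Heat map of the 97 members that passed the filter (rows, label colour by complex, black lines between complexes) in the 21 libraries (columns, ordered by muscle score), as log2 CPM minus the member's mean, with the colour scale ending at -1 and 1. The bars above give the muscle and the fat score as mean log2 CPM. The columns of 6.4/aFGF replicate 3, control replicate 3 and control replicate 1 are red over nearly all rows, and the rows of Cox6a2, Cox7a1 and Cox8b run past the end of the scale on both sides.

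The design asks first whether any of the 7 treatments changed the chain. No member was called in any of the 11 comparisons between groups by edgeR's quasi-likelihood test with Benjamini-Hochberg adjustment over all genes tested (a call needed a log2 fold change past 0.58 either way at an adjusted p below 0.05). In the test for any difference among the 7 groups, where no fold change was required, 0 of 97 members and 0.114% of all genes passed. The member with the smallest p there was Ndufa2, an accessory subunit of Complex I (adjusted p = 0.257), and it was the 1 member with an unadjusted p under 0.05.

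Against control, 91 of 97 members had a negative log2 fold change over the 6 hydrogel groups, with a median of -0.17 (all genes -0.02), and none was called (0.00632% of all genes were). In this comparison 22 members and 2640 of the 15811 genes had an unadjusted p under 0.05. The smallest p belonged to Cox7a2, the general isoform of subunit 7a. Its CPM was 108.6, 111.5 and 112.0 in the control wounds and ran from 83.8 to 108.4, with a median of 88.1, in the 18 hydrogel libraries. The 2 ranges did not overlap, yet the log2 fold change of -0.28 (SE 0.08) had an adjusted p of 0.131. By complex, all 4 members of Complex II, all 9 of Complex III and all 17 of Complex V lay below control, with medians of -0.19, -0.18 and -0.14. The members that did not lie below control all belonged to Complex I, its assembly factors or Complex IV. Adipocyte markers were lower, as most members were, at a median log2 fold change of -1.53 with 20 of 20 negative. Neutrophil markers were higher, at 0.98 with 8 of 8 positive. None of these markers was called. With the muscle and fat scores as covariates, the members' median was -0.08 and 76 of 97 were negative.

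The contrasts of pH and of growth factor compare 3 mice with 3. No member was called in any of them, against 0.00665% of all genes in 8.4/aFGF against 8.4/bFGF and 0% in each of the others. Between 6.4/aFGF and 7.4/aFGF, the comparison on which the study centres, 93 of 96 members were higher at pH 6.4 with a median log2 fold change of 0.17 (all genes 0.02). Complex I as a mean of its members stood at 5.38 ± 0.22 log2 CPM (SD, n = 3) in 6.4/aFGF and at 5.20 ± 0.11 in 7.4/aFGF, and Complex V at 7.30 ± 0.24 and 7.18 ± 0.10, so that the groups overlapped. Cox6a1 had the smallest p of this contrast (log2 fold change 0.27, SE 0.10, adjusted p = 0.832), the 1 member with an unadjusted p under 0.05. Replicate 3 of 6.4/aFGF had the largest muscle score of the series, but the mean score was 5.95 ± 2.51 (SD, n = 3) in 6.4/aFGF and 6.81 ± 1.41 in 7.4/aFGF. The 20 adipocyte markers were all higher in 6.4/aFGF, at a median log2 fold change of 0.88, with none called. In a fit of all 21 libraries with the muscle and fat scores as covariates, 93 of 97 members were positive with a median of 0.14, and none was called.

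The same pH step was also compared with bFGF. Between 6.4/bFGF and 7.4/bFGF, 27 of 96 members were higher at pH 6.4 and the median was -0.09. An unadjusted p under 0.05 was found for 14 of 96 members. This count is given without the share of all genes, so whether members exceeded that share was not tested. In a fit of all 21 libraries with the muscle and fat scores as covariates, the sign was the opposite for most. There, 64 of 97 members were positive at a median of 0.04. Cox8b, at 19.4, 13.3 and 23.3 FPKM in 6.4/bFGF and 97.3, 98.6 and 58.4 FPKM in 7.4/bFGF, gave the smallest p. The groups did not overlap, at a log2 fold change of -2.14 (SE 0.27) and an adjusted p of 0.420 by edgeR. DESeq2 called Cox8b in this contrast, the 1 member it called there (adjusted p = 5.62e-10), and it called 0.748% of all genes, a share near that of the members. By edgeR there were calls for Cox8b, Cox7a1 and Cox6a2 when 7.4/bFGF replicate 3 was left out (adjusted p = 0.009, 0.039 and 0.005), beside 1.83% of all genes. With all 6 libraries, Cox7a1 was at -1.76 (SE 0.68, adjusted p = 0.549) and Cox6a2 at -1.84 (SE 1.04, adjusted p = 0.618). The skeletal muscle list moved with these genes, at a median log2 fold change of -2.08 with 26 of 26 markers negative, and the adipocyte list at -1.60 with 20 of 20 negative. None of these markers was called either. In the fit of all 21 libraries with the muscle and fat scores as covariates, Cox6a2 was at 0.04.

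The test of whether the step from pH 7.4 to 6.4 differed between aFGF and bFGF called no member and 0% of all genes, at a median of 0.23 with 89 of 96 positive. Sdha had the smallest p in it, with a difference of 0.63 (SE 0.14) on the log2 scale and an adjusted p of 0.765. Its CPM was 227.5, 219.5 and 218.6 in 6.4/aFGF against 206.9, 180.7 and 191.7 in 7.4/aFGF, and 187.8, 173.2 and 172.0 in 6.4/bFGF against 219.6, 230.0 and 284.3 in 7.4/bFGF. Within each growth factor the groups did not overlap, in opposite directions. DESeq2 called Sdha (adjusted p = 0.028) and Ndufs1, the largest iron-sulfur subunit of Complex I (0.60, adjusted p = 0.028), in this test, beside 0.153% of all genes. The same test was positive for 20 of 20 adipocyte markers (median 2.43) and 26 of 26 muscle markers (median 2.20), with none called.

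The remaining contrasts held no call either. At pH 6.4, aFGF against bFGF had a median of 0.21 over 96 members (82 positive, 10 under an unadjusted p of 0.05), with Sdha at 0.31 (SE 0.10, adjusted p = 0.590). At pH 7.4 the median was -0.09 (24 positive, 5 under an unadjusted p of 0.05), with Ndufa9 at -0.31 (SE 0.08, adjusted p = 0.351), and at pH 8.4 it was 0.07 (68 positive, 3 under an unadjusted p of 0.05), with Atp5md at 0.31 (SE 0.11, adjusted p = 0.184). The medians of all genes lay between -0.013 and 0.011 in these 3 contrasts. From pH 7.4 to 8.4 the members' median was 0.09 with aFGF (78 positive, 1 under an unadjusted p of 0.05), with Atp5md at 0.24 (SE 0.09, adjusted p = 1.00). With bFGF it was -0.04 (28 positive, none under an unadjusted p of 0.05), with Cox4i2 at -0.57 (SE 0.26, adjusted p = 0.864). The difference between these 2 steps had a median of 0.14 (88 of 96 positive, none under an unadjusted p of 0.05, 0% of all genes called), with Ndufa1 at 0.27 (SE 0.15, adjusted p = 0.993). These contrasts share libraries with each other, so their medians are not independent. Their counts under an unadjusted p of 0.05 are given without the share of all genes, so whether members exceeded that share was not tested.

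**Figure D2:**
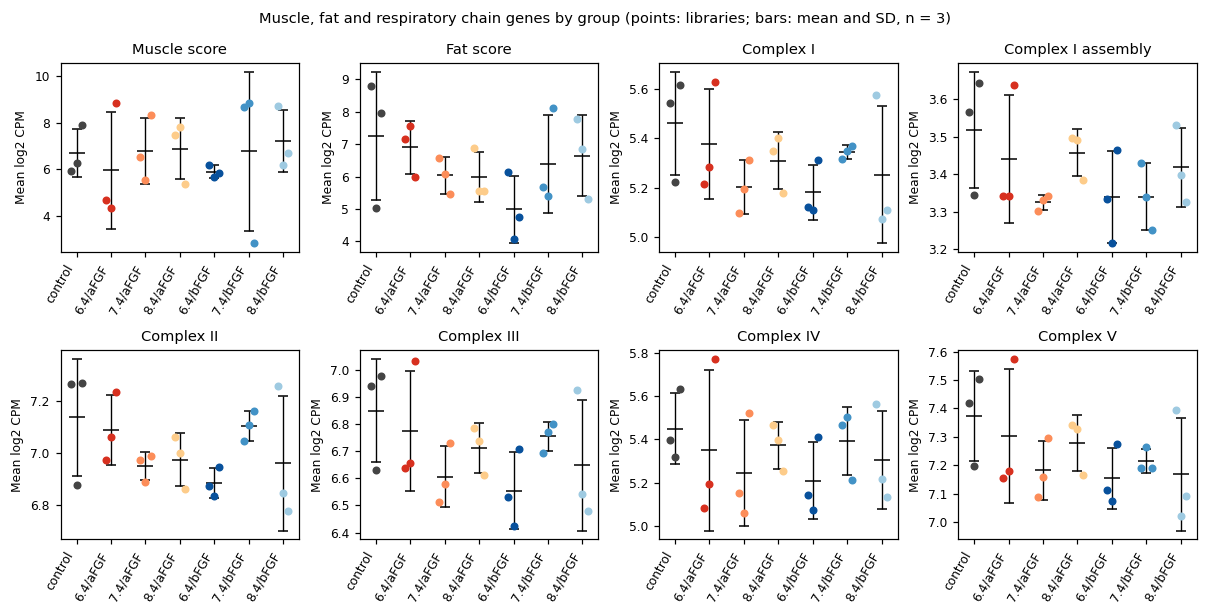
Muscle score, fat score and the mean of the members of each complex by group, as mean log2 CPM. Points are libraries in replicate order, and bars give the mean and SD of 3 libraries. The points of 7.4/bFGF span a muscle score of 2.83 to 8.83 while its Complex I mean stays between 5.31 and 5.37.

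Across the 21 libraries, the members' levels were compared with both scores. An edgeR fit with the muscle and the fat score together gave each gene a slope on each, the change in log2 CPM for a rise of 1 in the score. On the muscle score, 30 of the 97 members rose and none fell, against 4.56% and 1.81% of all genes tested (6.37% in either direction). The members' median slope was 0.05 (all genes -0.004), and 88 of 97 were positive. Complex I held 19 of the 30, namely 6 of its 7 core subunits and 13 of its 30 accessory subunits. There were 2 of 4 in Complex II (Sdhb and Sdhc), 1 of 9 in Complex III (Uqcrc1), 4 of 18 in Complex IV, 3 of 17 in Complex V and 1 of the 8 assembly factors (Ndufaf5).

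Cox6a2, the isoform of subunit 6a used by skeletal and heart muscle, rose most steeply, at 0.88 (SE 0.03, adjusted p = 2.87e-15). It stood at 3.20 FPKM in 7.4/bFGF replicate 3, the library with the least muscle, at a median of 25.2 FPKM, and at 140.7 FPKM in 6.4/aFGF replicate 3, the library with the most. Cox7a1, the muscle isoform of subunit 7a, rose at 0.59 (SE 0.07, adjusted p = 2.45e-06), from 4.09 FPKM in 6.4/aFGF replicate 1 to 39.9 FPKM in 6.4/aFGF replicate 3. Cox8b, the muscle isoform of subunit 8, rose at 0.42 (SE 0.08, adjusted p = 0.0015), from 13.3 FPKM in 6.4/bFGF replicate 2 to 125.7 FPKM in 6.4/aFGF replicate 3. The general forms that fill the same places in other tissues had slopes near 0 and were not called, Cox6a1 at -0.05 (SE 0.02), Cox8a at -0.04 (SE 0.02) and Cox7a2 at 0.01 (SE 0.02).

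The share of the muscle isoform in each pair ranged widely between mice. Cox6a2 made up 0.933% to 32.8% of the FPKM of its pair with Cox6a1 (median 8.01%), Cox7a1 3.56% to 22.6% of its pair with Cox7a2 (median 7.23%) and Cox8b 4.67% to 29.7% of its pair with Cox8a (median 11.3%). In 7.4/bFGF, Cox6a2 took 32.8% and 29.7% of its pair in replicates 1 and 2 and 0.933% in replicate 3. The general form stayed the larger of the pair in every library. In that replicate 3, with little muscle and a fat score of 8.12, Cox8b took 14.2% of its pair. It took 7.93% and 11.3% in 6.4/aFGF replicates 1 and 2, with muscle scores of 4.68 and 4.33 and fat scores of 7.16 and 7.55.

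**Figure D3:**
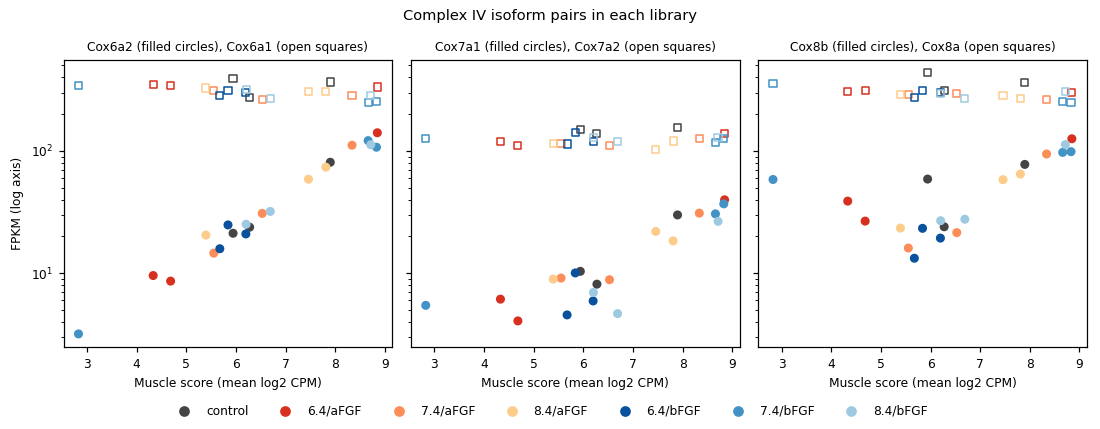
FPKM (log axis) of the 3 muscle isoforms of Complex IV (filled circles) and of their general partners (open squares) against the muscle score (mean log2 CPM) in 21 libraries, coloured by group. Cox6a2 climbs from 3.20 to 140.7 FPKM along the muscle score while Cox6a1 stays between 248.1 and 387.9 FPKM. Cox8b is at 58.9 and 58.4 FPKM in 2 fat-rich libraries with less muscle (control replicate 1 and 7.4/bFGF replicate 3). It is lower, at 26.7 and 38.9 FPKM, in 6.4/aFGF replicates 1 and 2, with fat scores of 7.16 and 7.55 and muscle scores of 4.68 and 4.33.

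Outside these isoforms the slopes on muscle were shallow. Next came Atp5g1 at 0.15 (SE 0.02, adjusted p = 9.71e-05), 1 of the 3 genes for the c subunit of the ATP synthase ring. Atp5g2 and Atp5g3, named after their values were seen, encode the same mature c subunit and were not called, with slopes of 0.03 each (adjusted p = 0.438 and 0.358). Atp5g1 had its lowest CPM, 47.5, in 7.4/bFGF replicate 3 and its highest, 109.1, in 6.4/aFGF replicate 3. Ndufs7, a core iron-sulfur subunit of Complex I, rose at 0.12 (SE 0.02, adjusted p = 0.00035), Ndufc1, an accessory subunit, at 0.11 (SE 0.02, adjusted p = 0.00058) and Ndufaf5 at 0.15 (SE 0.03, adjusted p = 0.0008). Among other subunits, Ndufv1, which takes electrons from NADH, had a slope of 0.07 (adjusted p = 0.031), Ndufs1 0.07 (adjusted p = 0.044) and Sdhb 0.07 (adjusted p = 0.022). Uqcrc1 was at 0.08 (adjusted p = 0.0058) and Cox5a at 0.08 (adjusted p = 0.039). Cyc1 (cytochrome c1, 0.06), Uqcrfs1 (the Rieske iron-sulfur protein, 0.05) and Atp5b (0.05) were not called, with adjusted p of 0.068, 0.114 and 0.096. The shallowest slope called was that of Ndufa3, at 0.05. Whether a gene's slope on muscle differs from its slope on fat was not tested.

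On the fat score, 32 of 97 members rose and 1 fell, against 6.62% and 1.25% of all genes tested (7.87% in either direction). The median slope was 0.07 (all genes 0.001) and 91 of 97 were positive. The members that rose were 15 of 41 in Complex I (6 of 7 core and 9 of 30 accessory subunits), 3 of 4 in Complex II, 5 of 9 in Complex III, 3 of 18 in Complex IV, 5 of 17 in Complex V and 1 of 8 assembly factors (Ndufaf1).

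Cox8b had the steepest slope on fat, at 0.43 (SE 0.13, adjusted p = 0.034), close to its slope on muscle. This call did not hold whichever library was left out, and the slope then ran from 0.32 (without 7.4/bFGF replicate 3) to 0.48. Its general partner Cox8a also rose with fat, at 0.09 (SE 0.03, adjusted p = 0.034). Sdha was the surest, at 0.19 (SE 0.03, adjusted p = 2.59e-05), and its slope on muscle was 0.04 (adjusted p = 0.321). Its highest CPM were 296.1 in control replicate 1, 284.3 in 7.4/bFGF replicate 3, 278.4 in 8.4/bFGF replicate 1 and 254.3 in control replicate 3, and these are the 4 libraries with the highest fat score. Ndufa10, an accessory subunit of Complex I, rose at 0.15 (SE 0.02, adjusted p = 0.00014), with 98.2 CPM in control replicate 1 and 56.0 CPM, its lowest, in control replicate 2, whose fat score was 5.03. Ndufv1 (0.15, adjusted p = 0.0011), Ndufb3 (0.13, adjusted p = 0.0014) and Uqcrc2 (0.12, adjusted p = 0.00071) followed. Sdhc had the shallowest slope called, at 0.08. In Complex V, Atp5b rose at 0.11 (adjusted p = 0.0029), whereas Atp5g1, the steepest of that complex on muscle, was at 0.03 on fat (adjusted p = 0.698). Cox6a2 was at -0.00 on fat (SE 0.04, adjusted p = 0.972) and Cox7a1 at 0.17 (SE 0.10, adjusted p = 0.349).

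Ndufa4l2 was the member that fell, at -0.25 (SE 0.05, adjusted p = 0.0037). It is a paralog of the Complex IV subunit Ndufa4, and is known to be induced at low oxygen. Its CPM was lowest, at 31.0, in control replicate 1, the library with the most fat, and its 3 highest values were 99.4 in 6.4/bFGF replicate 3, 88.2 in 8.4/aFGF replicate 3 and 84.8 in 6.4/bFGF replicate 2. It took 6.47% to 20.5% of the FPKM of its pair with Ndufa4 (median 13.6%), and Ndufa4 itself was not called, at 0.04. Cox4i2, the other isoform known from low oxygen, had slopes of -0.17 on muscle (adjusted p = 0.118) and -0.23 on fat (adjusted p = 0.101), and took 0.421% to 2.63% of its pair with Cox4i1 (median 1.21%).

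**Figure D4:**
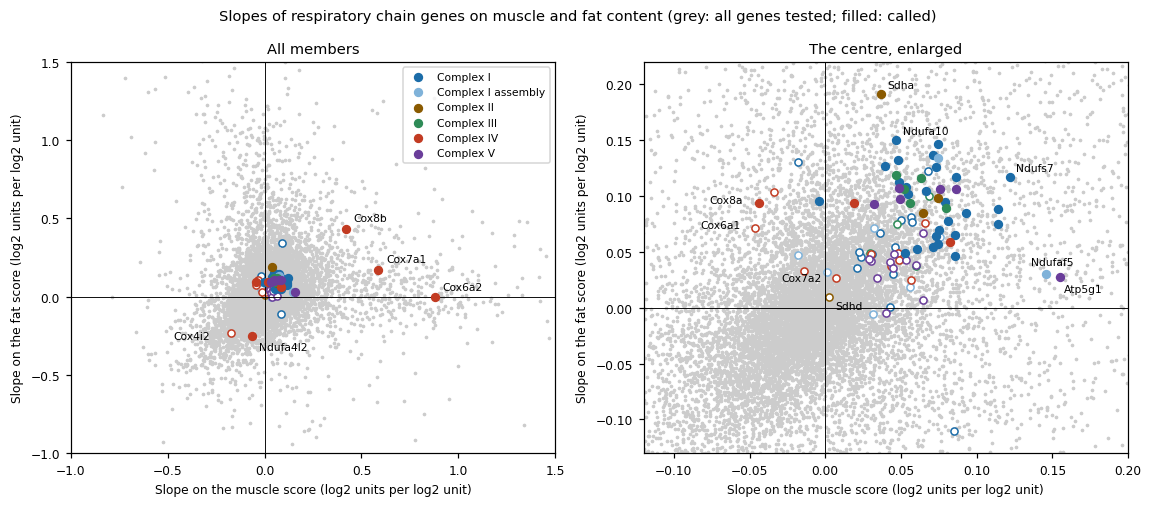
Slope on the muscle score (x axis) and on the fat score (y axis) of the 97 members, in log2 units per log2 unit of score, coloured by complex, filled where either slope was called and open where neither was, over all 15811 genes tested in grey. The left panel leaves out 33 of those genes and no member, and the right panel enlarges its centre. Most members lie above and to the right of the origin, Cox6a2, Cox7a1 and Cox8b lie far to the right, and Ndufa4l2 lies below.

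Of the 30 members called on muscle, 13 stayed called whichever library was left out, among them Cox6a2, Cox7a1, Cox8b, Atp5g1, Ndufs7, Ndufc1 and Uqcrc1. The count fell to 13 without 6.4/aFGF replicate 3 (4.82% of all genes were then called), to 16 without control replicate 3 (4.64%) and to 18 without 7.4/bFGF replicate 2 (4.71%) or 8.4/bFGF replicate 1 (5.11%). Of the 33 called on fat, 10 stayed called, among them Sdha, Ndufa10, Ndufv1, Ndufs1, Uqcrc2, Atp5b and Ndufa4l2. That count fell to 10 without control replicate 1 (3.94% of all genes) and to 21 without control replicate 3 (5.36%) or 6.4/bFGF replicate 2 (7.01%). Without the 2 libraries farthest from the median fat score (control replicate 1 and 7.4/bFGF replicate 3) it was 3 of 97, namely Sdha, Ndufa10 and Ndufv1, no larger a share than the 3.1% of all genes called in that fit. Without the 3 libraries with cartilage, liver or ovary genes, 25 members were called on muscle and 33 on fat (6.7% and 7.12% of all genes). Within groups, with a mean for each group in the fit, 31 were called on muscle and 14 on fat (6.24% and 4.53% of all genes). All 8 neutrophil markers had negative slopes on both scores (medians -0.25 and -0.28, none called), and with the neutrophil score in the fit 9 members were called on muscle and 14 on fat (3.51% and 4.4% of all genes). Of 8 endothelial markers, Pecam1 (-0.15, adjusted p = 0.034), Cdh5 (-0.18, adjusted p = 0.036) and Egfl7 (-0.13, adjusted p = 0.049) fell with the muscle score and none was called on fat. The part of these cells in the members' slopes was not tested. All called members kept the sign of their slope in each of these fits on the scores.

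The rest of oxidative metabolism was read from lists of related genes, in the fit of both scores over all 21 libraries. Of all genes tested, 4.56% rose and 1.81% fell with muscle, and 6.62% rose and 1.25% fell with fat. How the counts of these lists change when libraries are left out is not given here. In the tricarboxylic acid cycle with pyruvate dehydrogenase, 14 of 17 genes rose with fat (median slope 0.14) and 6 of 17 with muscle (0.05), and none fell. Pdhb, a subunit of pyruvate dehydrogenase, had a slope of 0.26 on fat (adjusted p = 0.00011). Among carriers of electrons and the genes that make ubiquinone, 6 of 13 rose with fat and 4 of 13 with muscle, of which Coq8a (0.39, adjusted p = 2.58e-05) and Coq10a (0.31, adjusted p = 9.71e-08) were the steepest. Cycs, the somatic cytochrome c, was not called on either score (0.04 and 0.03).

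Of 6 ADP/ATP and phosphate carriers and porins tested, 3 rose with muscle, led by Slc25a4, the muscle and heart form of the ADP/ATP carrier, at 0.26 (adjusted p = 7.70e-07), and none was called on fat. Slc25a5, the form of dividing cells, had a slope of -0.02 on muscle (adjusted p = 0.689). Of 17 genes for the assembly and copper supply of Complex IV, none was called on muscle and 3 rose with fat (Cox15, Surf1 and Lrpprc). Of 15 regulators of mitochondrial biogenesis, Ppargc1a (0.56, adjusted p = 0.0096), Esrrg (0.61, adjusted p = 0.00012) and Perm1 (0.37, adjusted p = 2.90e-05) rose with muscle, all at under 10 CPM, and Nrf1 fell with both scores (-0.06 on muscle and -0.08 on fat). Tfam, which packages mitochondrial DNA, had slopes of -0.01 and 0.02 and was not called.

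Brown fat and heart muscle share isoforms with the genes above. Ucp1, which defines brown fat, ran from 0 to 0.694 CPM, and Myh6, a myosin of heart muscle, from 0 to 0.438 CPM. Other genes of the 2 lists were higher, since the brown fat list summed to 41.2 to 159.6 CPM and the heart list to 18.2 to 105.8 CPM. Elovl3 of the brown fat list ran from 8.66 to 62.5 CPM, and Myl4 of the heart list from 11.8 to 81.1 CPM. Of 8 genes known from brown fat, 1 rose with the fat score (Otop1, which stayed under 1.30 CPM) and none with the muscle score, and none of the 6 heart genes tested was called on either.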

How the data were processed

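Total RNA from 21 wounds was made into TruSeq Stranded mRNA libraries. The authors deposited for each library the read counts and the FPKM of every gene. The submitters' processing notes name the build GRCm39, and the aligner, counter and annotation are not given in the sources used here. FPKM was checked for 18238 genes by the gene length it implies, given the count and the total of the library. That length differed by at most 0.000313% between libraries, and was not compared with an annotation. All 98 members matched a RefSeq symbol (used for names only, since that table is of another build).

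Counts were tested with edgeR 4.0.16 in R 4.3.3 (TMM scaling, filterByExpr, quasi-likelihood F-test, Benjamini-Hochberg over all genes tested, prior count 2). Pairwise contrasts used the 6 libraries of the groups compared, interactions 12, and the rest all 21. Fits between groups with the muscle and fat scores as covariates also used all 21 libraries. They thus differ from the pairwise contrasts and interactions in libraries as well as in covariates. A call needed an adjusted p under 0.05 and, between groups, a log2 fold change beyond 0.58. For slopes, muscle and fat scores entered 1 fit. SE is the size of the log2 fold change or slope over the root of F. CPM are TMM-scaled. The 3 mice of a group are its replicates, and no 2 libraries of a group agreed within counting noise. The fits were tested on simulated counts.

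Named members are the Complex IV isoforms with their partners, the extremes of level and SD in each complex, 10 chosen subunits of Complexes I to V, and the strongest members of each comparison. Members and lists were chosen with earlier results of these data known. Alternatives were DESeq2 1.42.0, limma 3.58.1 on log2(FPKM + 1) and log2(FPKM + 0.1), RLE scaling and other filters. Further ones were 5 markers a score, a replicate block, no fold threshold between groups, and leaving out libraries. The within-group fit without the 3 libraries that stood apart, and the fit with the neutrophil score, were added after seeing the data.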

Additional observations from a re-analysis of the deposited data

How the results depend on the processing

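Among the counts of members called, those of 9 of the 11 comparisons between groups stayed at 0 under every alternative run and whichever library was left out. DESeq2 called 1 member, Cox8b, lower in 6.4/bFGF than in 7.4/bFGF, and 2 members, Sdha and Ndufs1, higher in the test of pH 6.4 against 7.4 by growth factor, beside 0.748% and 0.153% of all genes. In the test for any difference among the 7 groups DESeq2 called 2050 of 16169 genes and edgeR 18 of 15811, with no member in either. Without 1 library the count for 6.4/bFGF against 7.4/bFGF ranged from 0 to 3, and it was 3 without 7.4/bFGF replicate 3 (1.83% of all genes). The 2 slopes depended on more. On muscle (30 called) the count was 47 by limma with either pseudocount, 7 with the score alone, 18 without the 2 farthest libraries, 14 within groups without the libraries that stood apart and 9 with the neutrophil score, beside 7.11% and 7.12%, 4.16%, 3.74%, 6.32% and 3.51% of all genes. On fat (33 called) it was 14 within groups, 13 with the score alone, 3 without the 2 farthest libraries, 7 within groups without the libraries that stood apart and 14 with the neutrophil score, beside 4.53%, 5.93%, 3.1%, 4.18% and 4.4% of all genes, so that without the 2 farthest libraries the members' share was no larger than that of all genes. Without 1 library the counts ranged from 13 to 32 on muscle and from 10 to 36 on fat. The share of all genes called then ranged from 4.36% to 7.83% on muscle and from 3.94% to 9.12% on fat. The cause of these changes was not tested. Every member called on either score kept the sign of its slope in all of these alternatives. Reversals fell on values that were not called. With both scores as covariates, in fits of all 21 libraries, Sdha was at -0.0845 in 6.4/aFGF against 6.4/bFGF and Cox6a2 at 0.0435 in 6.4/bFGF against 7.4/bFGF. On fat with the score alone, Atp5g1 was at -0.015 and Cox7a1 at -0.025. The slope of Cox6a2 on fat was 0.021 and 0.010 by limma, 0.0040 with the replicate block, 0.0081 without the libraries that stood apart, 0.0053 within groups, 0.0084 with both of these, 0.024 with the neutrophil score, and -0.024 to 0.018 without 1 library. Cox7a2 on fat was at -0.012 without the 2 farthest libraries and -0.0012 with the neutrophil score, and on muscle at -0.017 with the neutrophil score and -0.0016 to 0.020 without 1 library. Replicate numbers gave no sign of pairing the samples. The deviations of same-numbered samples correlated at -0.638 to 0.423 with 14 of 63 pairs over 0.1. Those of samples with other numbers correlated at -0.565 to 0.578 with 31 of 126 pairs over 0.1. Whether samples shared a batch was not tested. A replicate block gave 32 calls on each score, beside 6.48% of all genes on muscle and 6.4% on fat. It gave 0 in each comparison between groups. A call between groups needed a log2 fold change past 0.58, so a shift of the size of the members' median of 0.17 could not be called by that rule. With no fold threshold, at an adjusted p under 0.05 alone, no member was called in these comparisons either.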
